A study of Mus musculus with 16 samples.

Results

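The genes described here are 42 transcripts of proteins that the liver secretes into plasma, chosen by symbol among the 16973 genes counted in 16 livers of male C57BL/6 mice. They fall into 12 genes of carriers, other plasma glycoproteins and inter-alpha-inhibitor heavy chains, 13 genes of complement and 17 genes of coagulation, its inhibitors and fibrinolysis. The livers form 4 groups of 4. Livers labelled RPN11 hepatocyte-specific knockout stand against RPN11 flox/flox livers, and METTL3 hepatocyte-specific knockout livers stand against METTL3 flox/flox livers. The sources used here do not give the Cre driver, age or diet, and mice had food and water freely on a daily light and dark cycle. RPN11, encoded by Psmd14, is the deubiquitylating subunit of the proteasome, and METTL3 is the enzyme that places N6-methyladenosine on RNA. By its title, the series concerns nonalcoholic fatty liver disease. Each numbered library was treated as a separate mouse, which the labels do not state, so p-values cover only the spread between these samples.

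Hepatocytes make most proteins of plasma. Carriers such as albumin and transthyretin hold hormones, fatty acids and vitamins. Complement is a chain of proteases and pore-forming proteins started by antibodies, by lectins that bind microbial sugars or by slow activation of C3. Coagulation is a chain of zymogens that ends in thrombin and fibrin, and several of its factors need a vitamin K-dependent modification to bind membranes. Because most of these transcripts come from 1 cell type in bulk tissue, fewer hepatocytes and less transcript per hepatocyte cannot be told apart in any result below.

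Libraries held 20938715 to 27645935 counts in livers labelled RPN11 knockout, 24516234 to 28212133 in RPN11 flox/flox livers, 15980959 to 27778135 in METTL3 knockout livers and 25062848 to 29029592 in METTL3 flox/flox livers. Levels are CPM (counts scaled to a common library size) on 1 scale for all 16 livers, over library sizes scaled by TMM, which assumes that most genes do not change. Psmd14 was not lower in livers labelled RPN11 knockout (63.7 to 91.9 CPM) than in RPN11 flox/flox livers (74.2 to 81.8 CPM), so these are called the livers labelled RPN11 knockout throughout. Mettl3 lay at 6.21 to 6.58 CPM in METTL3 knockout livers, against 13.7 to 17.7 CPM in METTL3 flox/flox livers. It lay at 7.90 to 11.9 CPM in RPN11 flox/flox livers and 8.75 to 13.6 CPM in livers labelled RPN11 knockout. Both of these groups were also below the METTL3 flox/flox range. Labelled RPN11 knockout 4 and METTL3 knockout 4 stood apart: they had the lowest totals, and the summed level of 45 measured brain-enriched genes was 1769 CPM in labelled RPN11 knockout 4 and 1120 CPM in METTL3 knockout 4, against 232 to 533 CPM in the other 14 livers. The 2 most alike libraries were labelled RPN11 knockouts 1 and 3, with a chi-square of 8.15 per gene where the next pair had 28.7. Whether they came from separate mice could not be worked out. If they did not, standard errors and p-values that use the livers labelled RPN11 knockout may be too small. The liver markers of hepatocytes, Kupffer cells, endothelium and stellate cells were in the table except for 1 of 14 Kupffer cell and macrophage markers, and no measured marker of any of the 11 cell type lists was at 0 in every liver.

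All 42 members were in the table, and 41 passed the filter on low counts. The exception was Proc, protein C, an anticoagulant protease zymogen, with 10 counts in all 16 livers together and 0 to 4 in each. Scaled to exon length, Alb was highest, with 37436, 50777, 28627 and 48042 CPM per kb in livers labelled RPN11 knockout, RPN11 flox/flox, METTL3 knockout and METTL3 flox/flox livers. Ttr followed with group means of 2508 to 5268 CPM per kb, and then came C3 and Hpx with group means of 1066 to 1879 and 1477 to 1850 CPM per kb. Apart from Proc, the members lowest per length were Cfb, Klkb1, Ahsg and Masp1, all under 10 CPM per kb in every group. Ahsg encodes fetuin-A, an abundant plasma glycoprotein, but was counted at only 3.09 to 13 CPM per liver. The cause of its low count and that of Proc was not tested.

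Some members share exon sequence, on either strand, with other coding gene entries in GENCODE M21, and the counting decides which shared reads are kept. Of the exon bases, 93.7% were shared for Klkb1, 79.5% for Cfb, 63.5% for Trf, 54.9% for Masp2, 34.4% for Serpinc1 and 11.3% for Plg. For Klkb1 the overlapping entries were Cyp4v3 and another entry of the symbol Klkb1. The sources used here give neither the annotation nor the strand setting, so the levels of these 6 members are uncertain.

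**Figure D1:**
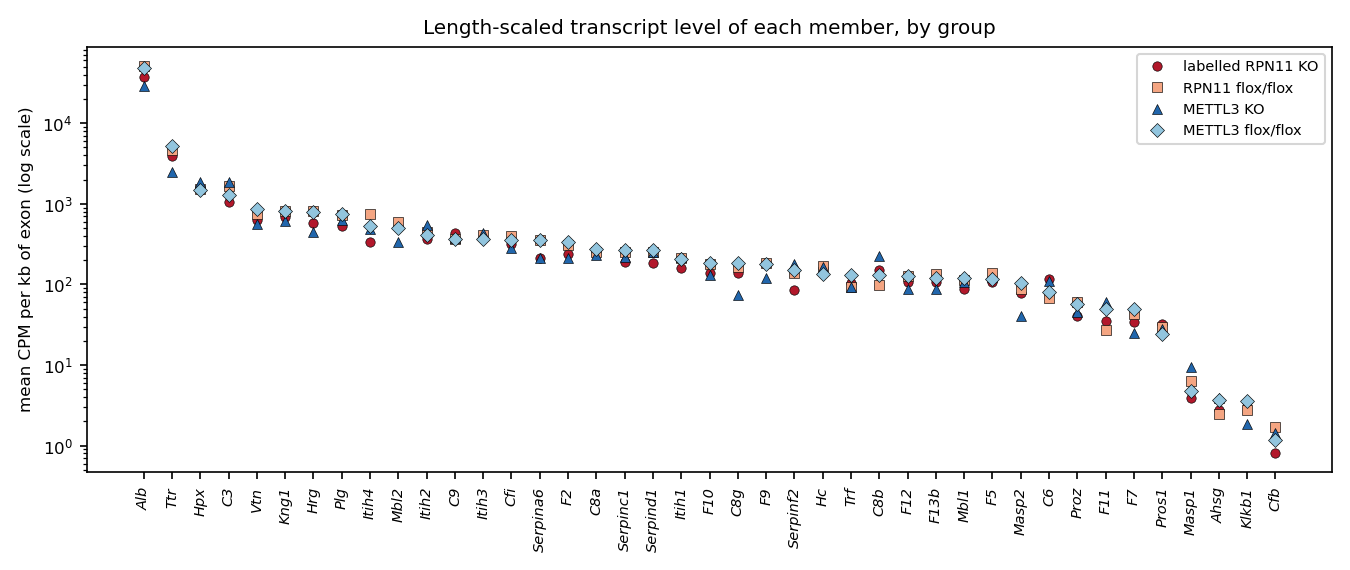
Mean level per group of the 41 tested members, in CPM per kb of exon on a log scale, ordered from left to right by the METTL3 flox/flox mean. Circles are livers labelled RPN11 knockout, squares RPN11 flox/flox, triangles METTL3 knockout and diamonds METTL3 flox/flox (n = 4 livers each); Alb stands highest, and Masp1, Ahsg, Klkb1 and Cfb lie below 10 in all groups.

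In METTL3 knockout livers, 11 of the 41 tested members fell and 2 rose relative to METTL3 flox/flox livers. Among all 12450 genes tested, 15.3% fell and 15.2% rose. The median log2 fold change was -0.26 over the members and 0.04 over all tested genes with TMM, and 0.12 over the members and 0.46 over all genes with plain library totals. Without METTL3 knockout 4 it was -0.11 over the members and 0.02 over all genes with TMM. By subset, 3 of 12 carriers and related genes fell, 3 of 13 complement genes fell and 2 rose, and 5 of 16 coagulation genes fell. Groups of 4 livers did not overlap for 10 members that were lower and 2 that were higher, where 16% and 15.5% of all genes did so. Overlap was judged on the TMM scale throughout, and some groups apart on it overlap over plain library totals. Calls are at a Benjamini-Hochberg adjusted p under 0.05, taken over all genes tested with edgeR's quasi-likelihood method.

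Among the carriers, Ttr, which encodes transthyretin, the carrier of thyroxine and of retinol-binding protein, showed the steepest fall. Its levels were 4326, 2993, 2603 and 1977 CPM in METTL3 knockout livers 1 to 4, against 6094, 6621, 6976 and 5301 CPM in METTL3 flox/flox livers, a log2 fold change of -1.07 ± 0.25 SE (adjusted p = 0.00866). No knockout liver reached the lowest flox/flox liver. Serpina6, the corticosteroid-binding globulin, had 252, 548, 321 and 385 CPM in METTL3 knockout livers and 522, 778, 710.4 and 488 CPM in METTL3 flox/flox livers, a log2 fold change of -0.73 ± 0.25 SE (adjusted p = 0.0486). Its groups overlapped, since knockout 2 lay above flox/flox livers 1 and 4. Hrg, histidine-rich glycoprotein, was at 1183, 873, 1046 and 480.1 CPM in METTL3 knockout livers and 1739, 1519, 1519.8 and 1468 CPM in METTL3 flox/flox livers, a log2 fold change of -0.80 ± 0.25 SE (adjusted p = 0.0301). Knockout 4 was the lowest of these, and the ranges of the groups did not meet.

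Albumin itself did not pass the test, and 3 of 4 METTL3 knockout livers were below its flox/flox range. Alb had 113049.7, 61251, 45623 and 48255 CPM in METTL3 knockout livers and 124094, 109157, 116226 and 100585 CPM in METTL3 flox/flox livers, a log2 fold change of -0.75 ± 0.32 SE (adjusted p = 0.0920). Knockout 1 lay inside the flox/flox range. Trf, the iron carrier transferrin, Hpx, the haem carrier hemopexin, and Ahsg had log2 fold changes of -0.51, 0.33 and 0.10 and did not pass. Vtn, vitronectin, a cell adhesion protein that also restrains the terminal complement complex, did not overlap between groups, with 1561, 1118, 1156 and 735 CPM in METTL3 knockout livers and 1849, 1735, 1746 and 1696 CPM in METTL3 flox/flox livers, and missed the threshold, a log2 fold change of -0.62 ± 0.22 SE (adjusted p = 0.0505). The 4 genes of the inter-alpha-inhibitor heavy chain family, of which Itih1, Itih2 and Itih3 encode chains that are linked to hyaluronan in matrix, had log2 fold changes of -0.12 for Itih4, 0.08 for Itih1, 0.24 for Itih3 and 0.41 for Itih2, and none passed. Itih2 did not overlap between groups, at 2127, 1700.1, 1836 and 1680.1 CPM in METTL3 knockout livers and 1492, 1239, 1479.7 and 1305 CPM in METTL3 flox/flox livers.

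Partners in the lectin pathway and in the C8 complex moved in opposite directions in METTL3 knockout livers. Mannose-binding lectins circulate with MASP-1 and MASP-2, proteases encoded by Masp1 and Masp2, and MASP-2 cleaves C4 and C2 to start the lectin pathway. Masp2 had 185, 134, 121 and 89.2 CPM in METTL3 knockout livers and 369, 356, 329.6 and 317 CPM in METTL3 flox/flox livers, a log2 fold change of -1.37 ± 0.20 SE (adjusted p = 0.000917), or 2.59-fold lower. Masp1 had 120.3, 75.0, 101 and 73.2 CPM in METTL3 knockout livers and 45.0, 30.7, 39.2 and 74.8 CPM in METTL3 flox/flox livers, a log2 fold change of 0.96 ± 0.26 SE (adjusted p = 0.0211). The Masp2 groups were fully apart, whereas flox/flox liver 4 lay within the Masp1 range of the knockouts. Mbl2, a mannose-binding lectin, fell to 401, 446, 325 and 288 CPM in METTL3 knockout livers, against 521, 614, 626 and 420.1 CPM in METTL3 flox/flox livers, a log2 fold change of -0.58 ± 0.20 SE (adjusted p = 0.0430). Knockout 2 lay above flox/flox liver 4, and the paralog Mbl1 had a log2 fold change of -0.16 that did not pass. The end of Masp2 shares exons with Tardbp on the other strand, whose log2 fold change in the METTL3 line was -0.31 ± 0.15 SE (adjusted p = 0.132); which gene the shared reads came from was not tested.

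The C8 complex, part of the pore that complement inserts into membranes, is built of the alpha, beta and gamma chains encoded by C8a, C8b and C8g. C8g fell to 167, 107, 110.0 and 59.6 CPM in METTL3 knockout livers, against 274, 305, 257 and 259.9 CPM in METTL3 flox/flox livers, a log2 fold change of -1.31 ± 0.25 SE (adjusted p = 0.00326). C8b rose to 616, 577, 678 and 421 CPM in METTL3 knockout livers, against 445, 277, 219 and 394 CPM in METTL3 flox/flox livers, a log2 fold change of 0.78 ± 0.24 SE (adjusted p = 0.0274). All C8g values of the knockouts were below all flox/flox values, while flox/flox liver 1 exceeded knockout 4 for C8b. C8a had a log2 fold change of -0.26 ± 0.32 SE and did not pass. The other terminal pathway genes Hc (complement C5), C6 and C9 had log2 fold changes of 0.29, 0.47 and 0.04, and none passed. C6 was at 630.4, 327, 327 and 292 CPM in METTL3 knockout livers and 391, 199.7, 183 and 367 CPM in METTL3 flox/flox livers, with knockout 1 far above the rest.

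C3, the component on which all pathways converge, was higher in each METTL3 knockout liver than in any METTL3 flox/flox liver but missed the threshold, with 10870.3, 9845, 9621 and 8324 CPM in METTL3 knockout livers and 7146, 5449.8, 6569 and 7433 CPM in METTL3 flox/flox livers, a log2 fold change of 0.54 ± 0.21 SE (adjusted p = 0.0651). Cfi, which inactivates the active C3 fragment, had a log2 fold change of -0.34, and Cfb, a protease component of the alternative pathway, had 0.25 at 2.41 to 6.08 CPM in METTL3 knockout livers and 2.86 to 3.74 CPM in METTL3 flox/flox livers; neither passed.

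The 5 coagulation genes that passed, F7, F2, F9, F10 and F12, fell. F7, the protease that tissue factor activates to start coagulation, had 63.1, 48.3, 45.1 and 31.1 CPM in METTL3 knockout livers and 103, 99.0, 82.6 and 82.5 CPM in METTL3 flox/flox livers, a log2 fold change of -0.97 ± 0.19 SE (adjusted p = 0.00330). F2, prothrombin, had 1215, 981, 1013 and 693 CPM in METTL3 knockout livers and 1654, 1533, 1565 and 1453 CPM in METTL3 flox/flox livers, a log2 fold change of -0.67 ± 0.20 SE (adjusted p = 0.0232). F9, the factor missing in haemophilia B, had 435, 315, 324 and 222 CPM in METTL3 knockout livers and 539, 451, 487 and 476 CPM in METTL3 flox/flox livers, a log2 fold change of -0.59 ± 0.20 SE (adjusted p = 0.0389). For these 3 genes the knockout and flox/flox livers did not overlap. F10, which forms the prothrombin-cleaving enzyme with factor V, was at 393, 370.3, 381 and 284 CPM in METTL3 knockout livers and 519, 533, 480.2 and 484 CPM in METTL3 flox/flox livers, a log2 fold change of -0.50 ± 0.16 SE (adjusted p = 0.0329). F12, which starts the contact system, was at 220.1, 174, 170.5 and 127 CPM in METTL3 knockout livers and 249, 253, 259.6 and 246 CPM in METTL3 flox/flox livers, a log2 fold change of -0.54 ± 0.17 SE (adjusted p = 0.0276). Neither of these overlapped, and in all 5 genes knockout 4 was lowest and knockout 1 highest of the knockout livers.

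Among the 6 tested vitamin K-dependent members, F2, F7, F9 and F10 fell and Pros1 (protein S) and Proz (protein Z), both cofactors of anticoagulation, did not pass, with log2 fold changes of 0.17 and -0.34. The cofactor F5 lay at 0.06, and the contact factor F11 at 0.27. F13b, which carries factor XIII, and Kng1, the kininogen, had -0.48 and -0.40, and Klkb1, prekallikrein, had -0.92 at 2.49 to 8.20 CPM in METTL3 knockout livers and 4.8 to 14.5 CPM in METTL3 flox/flox livers. The protease inhibitors Serpinc1 (antithrombin), Serpind1 (heparin cofactor II) and Serpinf2 (alpha-2-antiplasmin) had -0.29, -0.05 and 0.25, and Plg, plasminogen, had -0.25. None of these 11 passed. F7, F10 and Proz lie side by side on chromosome 8 (GRCm38), where F7 spans 13026034 to 13035809, F10 spans 13037308 to 13056676 and Proz spans 13060914 to 13076026.

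**Figure D2:**
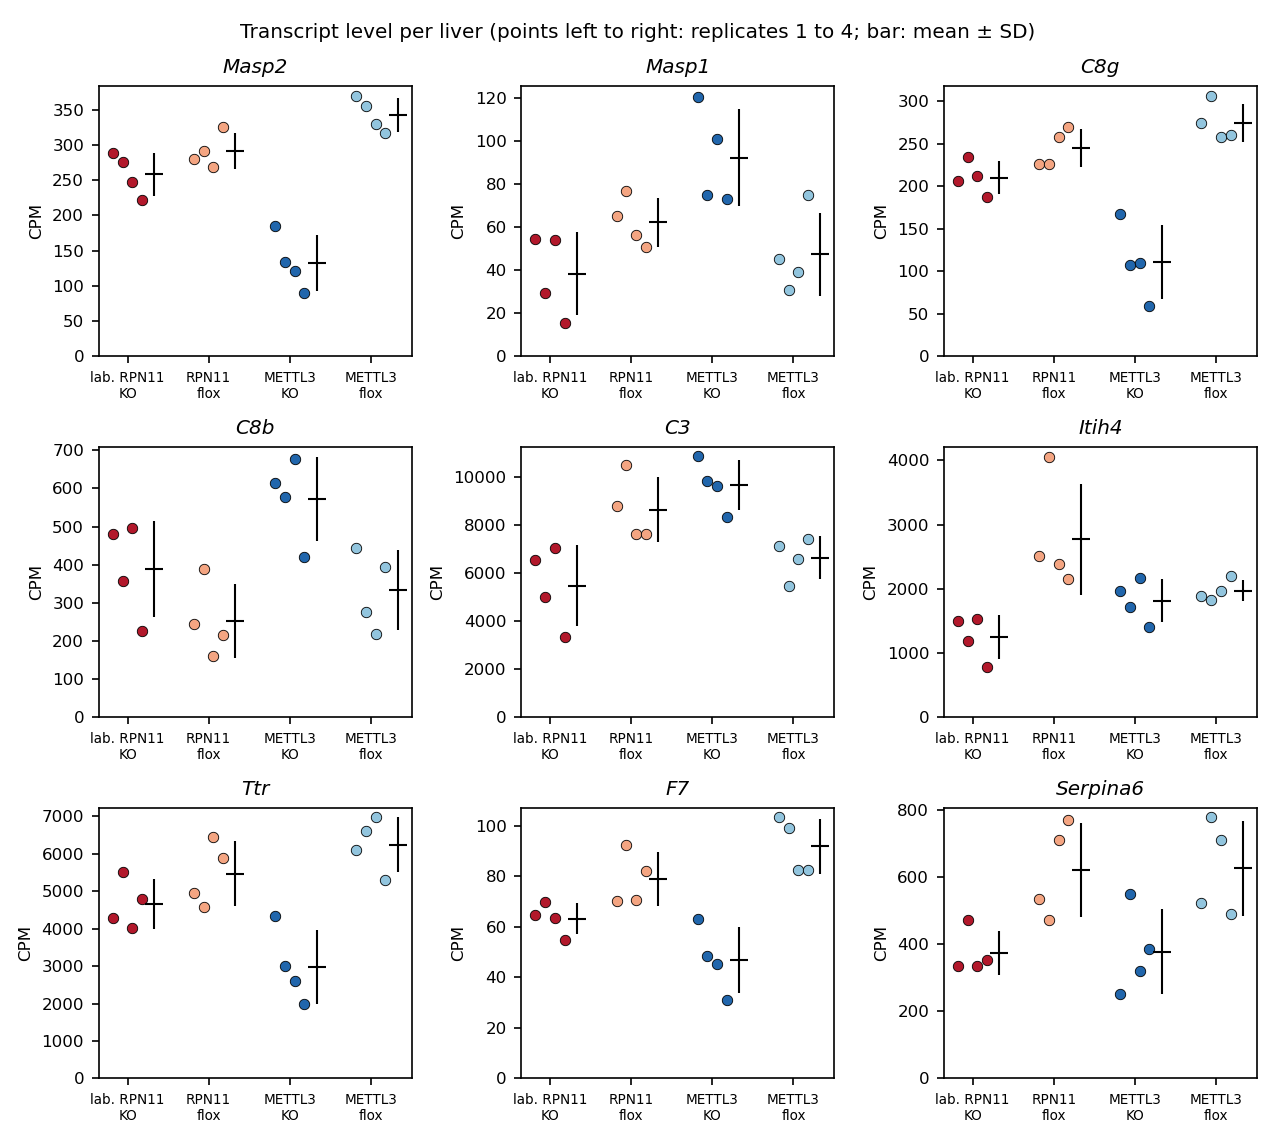
Level in CPM of 9 members in each of the 16 livers, with replicates 1 to 4 from left to right in each group and the mean ± SD beside them. In the METTL3 line, Masp2, C8g, Ttr and F7 lie lower in all 4 knockout livers than in all 4 flox/flox livers. On the same TMM scale this holds in the RPN11 line for Itih4, C3, Serpina6 and F7. Over plain library totals the RPN11 groups overlap for Serpina6 and F7.

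The METTL3 calls on Ttr, C8g, Masp2 and F7 held under all 15 alternatives, which included each liver left out in turn. In a single line, leaving out both libraries labelled knockout 4 is the same fit as leaving out that line's knockout 4. Tallies out of 15, in either line, count this fit under both names. The number of members that fell was 18, 6, 5 and 7 without METTL3 knockout 1, 2, 3 and 4, and 4, 4, 4 and 9 without METTL3 flox/flox liver 1, 2, 3 and 4. The call on Masp1 was lost in 1 fit of all 16 livers, without knockout 3 or without flox/flox liver 1 or 3, and that on C8b without knockout 2 or 3 or without flox/flox liver 2 or 3. Of the 15 alternatives, Hrg and F2 kept their calls under 9, F12 under 8, Mbl2 under 7, Serpina6 under 6, F9 under 5 and F10 under 4. Among members that did not pass, Vtn was called lower under RLE size factors, DESeq2, the replicate block, 1 fit of all 16 livers and without knockout 1, Alb was called lower under DESeq2, 1 fit of all 16 livers and without knockout 1, and C3 was called higher under plain library totals, DESeq2 and without knockout 4. Over plain library totals 13 members rose and 4 fell, the 4 that fell being Ttr, C8g, Masp2 and F7. On that scale all genes split into 4077 higher and 789 lower, against 1893 higher and 1906 lower with TMM.

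Markers of hepatocytes and of other cells moved with these changes. Of the hepatocyte markers, 8 of 15 fell and 1, Cyp3a11, rose in METTL3 knockout livers, where 15.3% and 15.2% of all genes did. Their summed level was 25302 to 48602 CPM in METTL3 knockout livers and 56458 to 62531 CPM in METTL3 flox/flox livers. Knockout 4 held the lowest sum, and the other knockout livers had 34917 to 48602 CPM. All 12 tested Kupffer cell and macrophage markers rose, with sums of 651 to 1838 CPM in METTL3 knockout livers and 255 to 349 CPM in METTL3 flox/flox livers. Knockout 4 held the highest sum, and the other knockout livers had 651 to 908 CPM. Of 12 stellate cell and fibroblast markers 8 rose and 1 fell, with sums of 678 to 828 CPM in METTL3 knockout livers and 402 to 524 CPM in METTL3 flox/flox livers. Their part in the result was not tested.

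Promoters are shown for Masp2, C8g and F7, which fell in METTL3 knockout livers under every alternative, for C8b, which rose beside C8g, and for Itih4, the member that fell most in livers labelled RPN11 knockout. Each runs from 250 bases before to 50 bases after the RefSeq transcript start in GRCm38.p6, and capitals mark matches to 3 motifs searched on both strands: the HNF4 site CAAAGNNCA, the C/EBP core TTGCNNAA and the TATA box TATAAA.
Masp2 (chr4:148602294-148602593, plus strand): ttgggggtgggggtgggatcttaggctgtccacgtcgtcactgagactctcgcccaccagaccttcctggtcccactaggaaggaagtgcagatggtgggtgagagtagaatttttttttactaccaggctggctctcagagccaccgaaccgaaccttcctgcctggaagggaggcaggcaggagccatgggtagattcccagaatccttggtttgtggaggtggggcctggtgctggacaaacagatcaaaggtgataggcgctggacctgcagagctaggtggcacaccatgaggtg
C8g (chr2:25501670-25501969, minus strand): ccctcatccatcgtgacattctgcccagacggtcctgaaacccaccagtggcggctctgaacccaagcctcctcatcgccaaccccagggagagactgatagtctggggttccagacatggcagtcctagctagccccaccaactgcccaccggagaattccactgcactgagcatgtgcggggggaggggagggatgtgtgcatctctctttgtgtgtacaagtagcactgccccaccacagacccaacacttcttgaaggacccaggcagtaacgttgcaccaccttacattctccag
C8b (chr4:104766067-104766366, plus strand): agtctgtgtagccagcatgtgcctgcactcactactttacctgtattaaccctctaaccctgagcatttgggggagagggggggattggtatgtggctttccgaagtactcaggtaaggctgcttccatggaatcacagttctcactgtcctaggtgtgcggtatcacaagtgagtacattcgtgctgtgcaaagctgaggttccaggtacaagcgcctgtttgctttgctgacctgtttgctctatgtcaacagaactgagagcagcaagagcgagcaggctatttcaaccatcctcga
F7 (chr8:13025784-13026083, plus strand): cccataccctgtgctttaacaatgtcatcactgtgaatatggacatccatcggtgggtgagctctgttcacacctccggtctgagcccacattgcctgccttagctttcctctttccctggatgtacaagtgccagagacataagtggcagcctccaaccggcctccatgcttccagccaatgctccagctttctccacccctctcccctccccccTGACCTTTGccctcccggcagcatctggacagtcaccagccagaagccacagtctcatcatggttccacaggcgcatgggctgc
Itih4 (chr14:30886226-30886525, plus strand): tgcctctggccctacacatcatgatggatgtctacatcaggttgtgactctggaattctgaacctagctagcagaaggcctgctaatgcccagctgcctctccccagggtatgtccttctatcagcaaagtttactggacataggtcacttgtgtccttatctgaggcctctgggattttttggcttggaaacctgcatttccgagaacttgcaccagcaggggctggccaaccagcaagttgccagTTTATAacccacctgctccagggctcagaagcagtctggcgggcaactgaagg

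None of the 3 motifs matched in the Masp2, C8g and C8b windows, which says only that these letters are not there. Positions count back from -1, the base before the start. The F7 window held the HNF4 site as TGACCTTTG, on the opposite strand, from position -34 relative to the start. In Itih4 the TATA box stood as TTTATA on the opposite strand from position -3. RefSeq promoters were found for 33 of the 42 members. The HNF4 site was in 5 of them (15.2%, against 6.36% of all 32851 promoters), the C/EBP core in 11 (33.3%, against 10.8%) and the TATA box in 7 (21.2%, against 13.6%). Each member stood with the promoter that had most GENCODE starts nearby, whereas the comparison took every promoter entry. The shares are therefore not like for like. HNF4 and C/EBP proteins are transcription factors of hepatocytes; a match describes letters in the window and not binding. Their genes Hnf4a, Cebpa and Cebpb were among 8 of 22 tested liver transcription factors that fell in METTL3 knockout livers, where none rose. Of all genes, 15.3% fell and 15.2% rose there. In livers labelled RPN11 knockout none of the 22 fell and 1 rose, Cebpb, by 0.65 ± 0.16 SE (adjusted p = 0.0449). By direction, 16 of the 22 were negative in that line, with a median of -0.25 against 0.03 over all genes. Groups did not overlap for 9 that were lower and 1 that was higher, where 10.1% and 7.61% of all genes did so. Cebpa had -0.35 ± 0.10 SE in that line and did not pass. A link between these factors and the members was not tested. In METTL3 knockout livers Cebpa had a log2 fold change of -1.26 ± 0.18 SE (adjusted p = 0.000849) and Hnf4a -0.78 ± 0.20 SE (adjusted p = 0.0130) in edgeR's quasi-likelihood test; Hnf4a was named after its values were seen.

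In livers labelled RPN11 knockout, 2 of the 41 tested members fell, Itih4 and Serpina6, and none rose, relative to RPN11 flox/flox livers. Among all 12108 genes tested, 2.82% fell and 1.99% rose. The direction was shared more widely than the calls: 31 of 41 members had a negative log2 fold change, with a median of -0.30 over the members, against 0.03 over all genes. The members also moved together in single flox/flox livers. Between 9 and 32 of 41 lay below the flox/flox mean in each RPN11 flox/flox liver, against 27 to 35 in livers labelled RPN11 knockout. Medians were -0.27 in carriers, -0.21 in complement and -0.34 in coagulation. The 2 groups did not overlap for 16 members, all lower in livers labelled RPN11 knockout, where 10.1% of all genes were lower and 7.61% higher with no overlap. At an unadjusted p under 0.05, 17 of 41 members were counted, where 25% of all genes were. DESeq2 called 9 members lower and 1 higher, where 6.52% and 5.21% of the 11362 genes with an adjusted p were.

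Itih4, a heavy chain relative that plasma kallikrein cleaves, had 1494, 1193, 1537 and 786 CPM in livers labelled RPN11 knockout 1 to 4, against 2505, 4043, 2379.8 and 2151 CPM in RPN11 flox/flox livers, a log2 fold change of -1.14 ± 0.24 SE (adjusted p = 0.0288). Every liver labelled knockout lay below every flox/flox liver. Serpina6 had 333.3, 470.6, 333.2 and 351.7 CPM in livers labelled RPN11 knockout, against 533.1, 470.8, 708.1 and 767.7 CPM in RPN11 flox/flox livers, a log2 fold change of -0.72 ± 0.18 SE (adjusted p = 0.0409). Its groups were apart by a small gap, since labelled knockout 2 lay just below flox/flox liver 2. Over plain library totals these 2 livers change order. Labelled knockout 2 had 12465 of 27645935 counts, and flox/flox liver 2 had 11760 of 28212133. Itih1, Itih2 and Itih3 had log2 fold changes of -0.38, -0.30 and -0.10 and did not pass; Itih1, Itih3 and Itih4 are neighbours on chromosome 14. Alb had 86716, 99691, 92145 and 72147 CPM in livers labelled RPN11 knockout and 113378, 106492, 134853 and 120956 CPM in RPN11 flox/flox livers, a log2 fold change of -0.43 ± 0.15 SE (adjusted p = 0.111). The Alb groups did not overlap, but the test was not passed. Ttr and Vtn had log2 fold changes of -0.21 and -0.24, and Trf, Hpx and Ahsg had 0.21, 0.04 and 0.18. Hrg was likewise apart, at 1309.5, 1209, 1252 and 828 CPM in livers labelled RPN11 knockout and 1524, 1760.0, 1404 and 1747 CPM in RPN11 flox/flox livers, a log2 fold change of -0.47 ± 0.15 SE (adjusted p = 0.0899).

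No complement member passed in the RPN11 line. C3 had 6549.9, 5002, 7054 and 3331 CPM in livers labelled RPN11 knockout and 8802, 10489, 7629 and 7612 CPM in RPN11 flox/flox livers, a log2 fold change of -0.65 ± 0.21 SE (adjusted p = 0.0966). All livers labelled knockout were below all flox/flox livers, and labelled knockout 4 was the lowest. C6 had 491, 395, 491 and 273 CPM in livers labelled RPN11 knockout and 251, 381, 181 and 159 CPM in RPN11 flox/flox livers, a log2 fold change of 0.77 ± 0.29 SE (adjusted p = 0.142). Here flox/flox liver 2 lay within the range of the livers labelled knockout. C8b had a log2 fold change of 0.63, C8a 0.04 and C8g -0.21, and the lectin pathway genes Mbl1, Mbl2, Masp1 and Masp2 had -0.35, -0.21, -0.70 and -0.16. Masp1 was at 54.6, 29.4, 53.9 and 15.3 CPM in livers labelled RPN11 knockout and 65.1, 76.9, 56.5 and 50.9 CPM in RPN11 flox/flox livers, a wide spread in livers labelled knockout. Hc, C9, Cfi and Cfb had -0.10, 0.24, -0.31 and -1.07, the last at 0.947 to 3.67 CPM in livers labelled RPN11 knockout and 3.36 to 5.96 CPM in RPN11 flox/flox livers.

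No coagulation member passed either. On the TMM scale 8 of 16 were lower without overlap, where 10.1% of all genes were. Serpinf2, the inhibitor of plasmin, came nearest, with 227, 211, 219.8 and 126 CPM in livers labelled RPN11 knockout and 304, 410.1, 258 and 310.4 CPM in RPN11 flox/flox livers, a log2 fold change of -0.70 ± 0.19 SE (adjusted p = 0.0572). Proz had 272, 211, 274 and 142 CPM in livers labelled RPN11 knockout and 335, 378, 297 and 337 CPM in RPN11 flox/flox livers, a log2 fold change of -0.58 ± 0.18 SE (adjusted p = 0.0818). In both genes all flox/flox livers were above all livers labelled knockout. F2 had 1165, 1166, 1151 and 880.2 CPM in livers labelled RPN11 knockout and 1368, 1385, 1388 and 1580.2 CPM in RPN11 flox/flox livers, a log2 fold change of -0.38 ± 0.12 SE (adjusted p = 0.0959). The vitamin K-dependent genes F7, F9 and F10 had log2 fold changes of -0.30, -0.01 and -0.35. F7 and F10 were lower without overlap on the TMM scale, though F7 overlapped over plain library totals, and F9 overlapped between groups. The other 10 tested members of the subset lay between -0.45 for Plg and 0.38 for F11, with Serpinc1 at -0.38 and Serpind1 at -0.44.

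Labelled RPN11 knockout 4 had the most members below the flox/flox mean of the line, 35 of 41. Without it, 4 members fell, namely Serpina6, Itih4, Serpinf2 and Proz, the members' median was -0.18 and 29 of 41 were negative. Without labelled RPN11 knockout 1, 2 and 3 the members that fell numbered 1, 0 and 1, and without RPN11 flox/flox liver 1, 2, 3 and 4 they numbered 0, 1, 0 and 0. Over plain library totals the median of all genes was 0.18 and that of the members -0.16, with 1 member lower. Itih4 kept its call under 10 of the 15 alternatives and Serpina6 under 5. Kupffer cell and macrophage markers summed to 463 to 1851 CPM in livers labelled RPN11 knockout and 320 to 521 CPM in RPN11 flox/flox livers. Labelled knockout 4 held the highest sum, and the other livers labelled knockout had 463 to 758 CPM. Of 12 tested, 1 rose, Mpeg1, where 1.99% of all genes did. Hepatocyte markers summed to 42383 to 58918 CPM in livers labelled RPN11 knockout and 56141 to 64869 CPM in RPN11 flox/flox livers. Labelled knockout 4 held the lowest sum, and the other livers labelled knockout had 55180 to 58918 CPM. Among these 15 markers Tat rose and Fbp1 fell. Their part in the result was not tested.

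**Figure D3:**
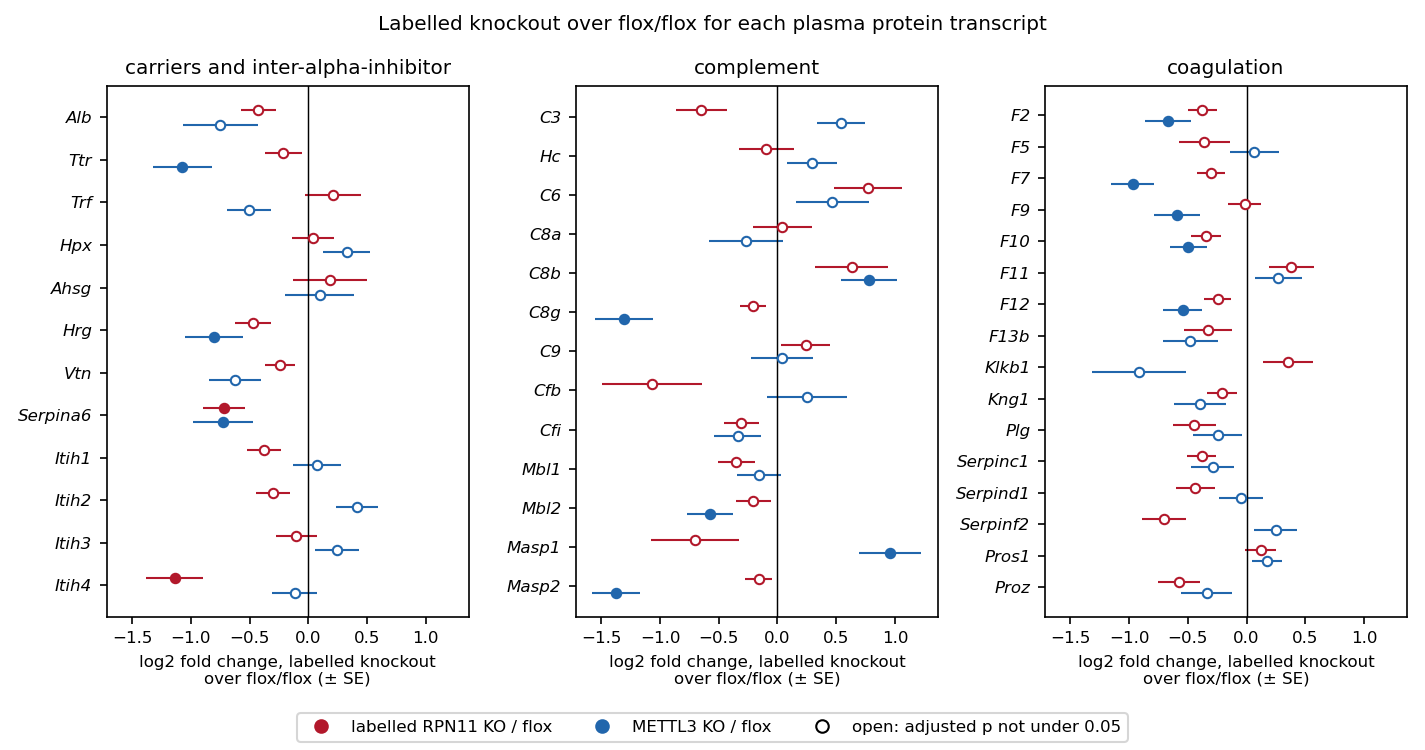
Log2 fold change of each tested member, livers labelled knockout over flox/flox livers, with its standard error as the bar, red for the RPN11 line and blue for the METTL3 line, in 3 panels by subset. Filled points passed an adjusted p under 0.05, 2 red and 13 blue; in complement, blue points reach -1.37 for Masp2 and 0.96 for Masp1.

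The effects of the lines were compared directly, as the effect in the RPN11 line minus that in the METTL3 line, in 1 fit of all 16 livers. Of 41 members, 5 had a lower and 2 a higher value, where 6.15% and 6.96% of all 13118 genes did. C3 had a log2 difference of -1.19 ± 0.31 SE (adjusted p = 0.0179), its log2 fold changes being -0.65 (RPN11 line) and 0.54 (METTL3 line). Masp1 had a log2 difference of -1.66 ± 0.51 SE (adjusted p = 0.0435), and Masp2 had one in the other direction, a log2 difference of 1.20 ± 0.25 SE (adjusted p = 0.00483). Tardbp, which shares exons with Masp2, also differed, by 0.63 ± 0.19 SE (adjusted p = 0.0371). C8g had a log2 difference of 1.08 ± 0.29 SE (adjusted p = 0.0211), its log2 fold changes being -0.21 (RPN11 line) and -1.31 (METTL3 line). Serpinf2 had a log2 difference of -0.96 ± 0.28 SE (adjusted p = 0.0316). The heavy chain genes Itih4 and Itih2 differed by -1.03 ± 0.33 SE (adjusted p = 0.0444) and -0.72 ± 0.23 SE (adjusted p = 0.0447). For C3, Serpinf2 and Itih2 neither line alone passed the threshold. Serpinf2 had 468, 406, 474 and 323 CPM in METTL3 knockout livers and 346, 285, 347 and 429 CPM in METTL3 flox/flox livers, ranges that overlapped, and Itih2 had 1308, 1298, 1337 and 849.8 CPM in livers labelled RPN11 knockout and 1517, 1488, 1448 and 1494 CPM in RPN11 flox/flox livers, which did not.

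Differences in C3 and Masp2 held under all 22 alternatives and that in C8g under 21, the exception being without RPN11 flox/flox liver 1. Serpinf2 kept its call under 14 of them, Itih4 under 10 and Itih2 and Masp1 under 8. The lower differences numbered 5, 1, 4 and 3 without labelled RPN11 knockout 1, 2, 3 and 4, and 1, 1, 2 and 3 without RPN11 flox/flox liver 1, 2, 3 and 4. They numbered 4, 1, 1 and 4 without METTL3 knockout 1, 2, 3 and 4, and 1, 1, 1 and 3 without METTL3 flox/flox liver 1, 2, 3 and 4. Ttr and F7, which passed in the METTL3 line alone, had differences of 0.84 ± 0.31 SE (adjusted p = 0.0803) and 0.65 ± 0.24 SE (adjusted p = 0.0747) and did not pass, and F2 had 0.28 ± 0.24 SE (adjusted p = 0.497). Of the 41 members, 22 were negative and 7 positive in both lines, 9 were negative in the RPN11 line alone and 3 in the METTL3 line alone. The same was not counted over all genes, so whether the members differ from them in this is not known. Serpina6 was the 1 member called in both, with log2 fold changes of -0.72 and -0.73.

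Flox/flox livers of the lines were set against each other to give the difference between lines without a knockout, as RPN11 flox/flox over METTL3 flox/flox. No member passed in edgeR's quasi-likelihood test, where 0.244% of 11905 genes were higher and 0.0756% lower. At an unadjusted p under 0.05 there were 9 of 41 members, where 16.5% of all genes were counted. DESeq2 called 2 members lower, Trf and F11, and none higher, where 1.42% and 2.41% of the 10741 genes with an adjusted p were. F11, factor XI, had 58.3, 79.7, 41.3 and 67.7 CPM in RPN11 flox/flox livers and 121, 92.7, 82.8 and 149 CPM in METTL3 flox/flox livers, a log2 fold change of -0.86 ± 0.23 SE (adjusted p = 0.124). C3 had a log2 fold change of 0.37 ± 0.12 SE (adjusted p = 0.162) and Itih4 of 0.48 ± 0.17 SE (adjusted p = 0.198) between the flox/flox groups, and neither passed. Mettl3 itself had a log2 fold change of -0.70 ± 0.17 SE (adjusted p = 0.0784) between the flox/flox groups in that edgeR test and did not pass. Members' median was -0.02, the same as that of all genes at this precision. Without METTL3 flox/flox liver 4, Masp1 was called higher and Trf lower.

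**Figure D4:**
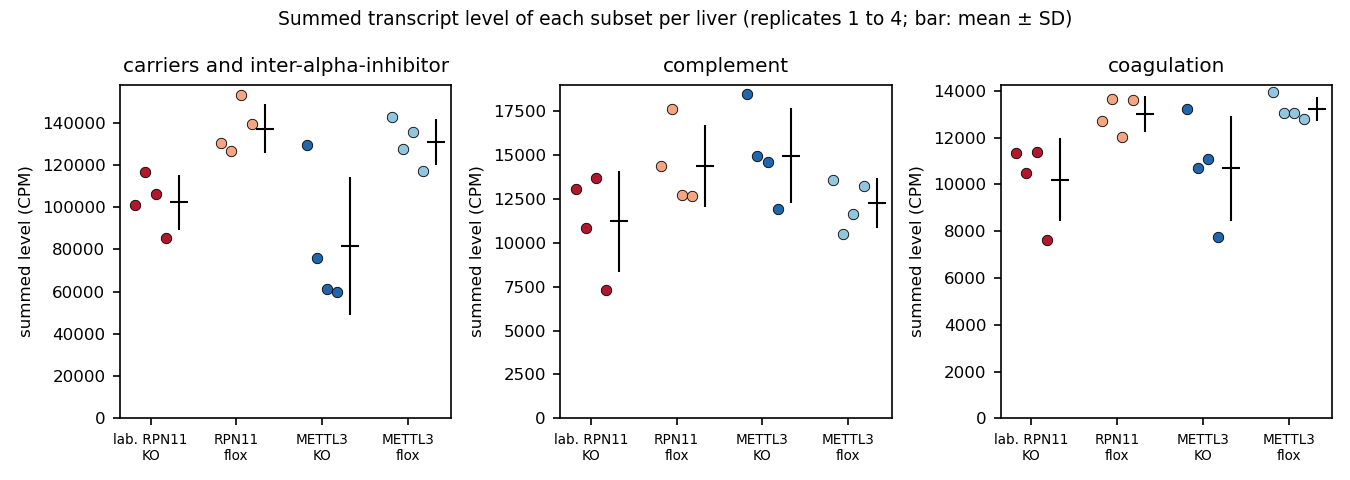
Summed level of each subset per liver in CPM, with replicates 1 to 4 from left to right in each group and the mean ± SD beside them. Carriers, dominated by Alb, lie lower in 3 of 4 METTL3 knockout livers and in all 4 livers labelled RPN11 knockout than in their flox/flox livers; complement in METTL3 knockout livers spans 11917 to 18477 CPM and overlaps the flox/flox range.

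Liver by liver, the members took 11.6 to 13.2% of counts in livers labelled RPN11 knockout and 14.0 to 16.2% in RPN11 flox/flox livers, 10.6 to 15.5% in METTL3 knockout livers and 13.4 to 15.0% in METTL3 flox/flox livers. Summed coagulation transcripts reached 7611 to 11388 CPM in livers labelled RPN11 knockout, against 12033 to 13639 CPM in RPN11 flox/flox livers. They reached 7747 to 13222 CPM in METTL3 knockout livers, against 12788 to 13953 CPM in METTL3 flox/flox livers, with knockout 1 inside the flox/flox range. Summed complement transcripts were 7343 to 13696 CPM in livers labelled RPN11 knockout and 12680 to 17662 CPM in RPN11 flox/flox livers, and 11917 to 18477 CPM in METTL3 knockout livers and 10519 to 13594 CPM in METTL3 flox/flox livers. The median member stood at a log2 difference from the line's flox/flox mean of -0.18, -0.19, -0.21 and -0.67 in labelled RPN11 knockouts 1 to 4, and at 0.04, -0.23, -0.14 and -0.67 in METTL3 knockouts 1 to 4. In the flox/flox livers themselves it ranged from -0.13 to 0.14 in the RPN11 line and from -0.10 to 0.11 in the METTL3 line. In METTL3 knockout 1, 16 of 41 members were below the flox/flox mean, against 25 to 34 in the other 3. METTL3 flox/flox livers had 9 to 29 members below it. Mettl3 lay at 6.58, 6.21, 6.41 and 6.54 CPM in METTL3 knockouts 1 to 4. Whether its level went with the shift of the members was not tested.

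**Figure D5:**
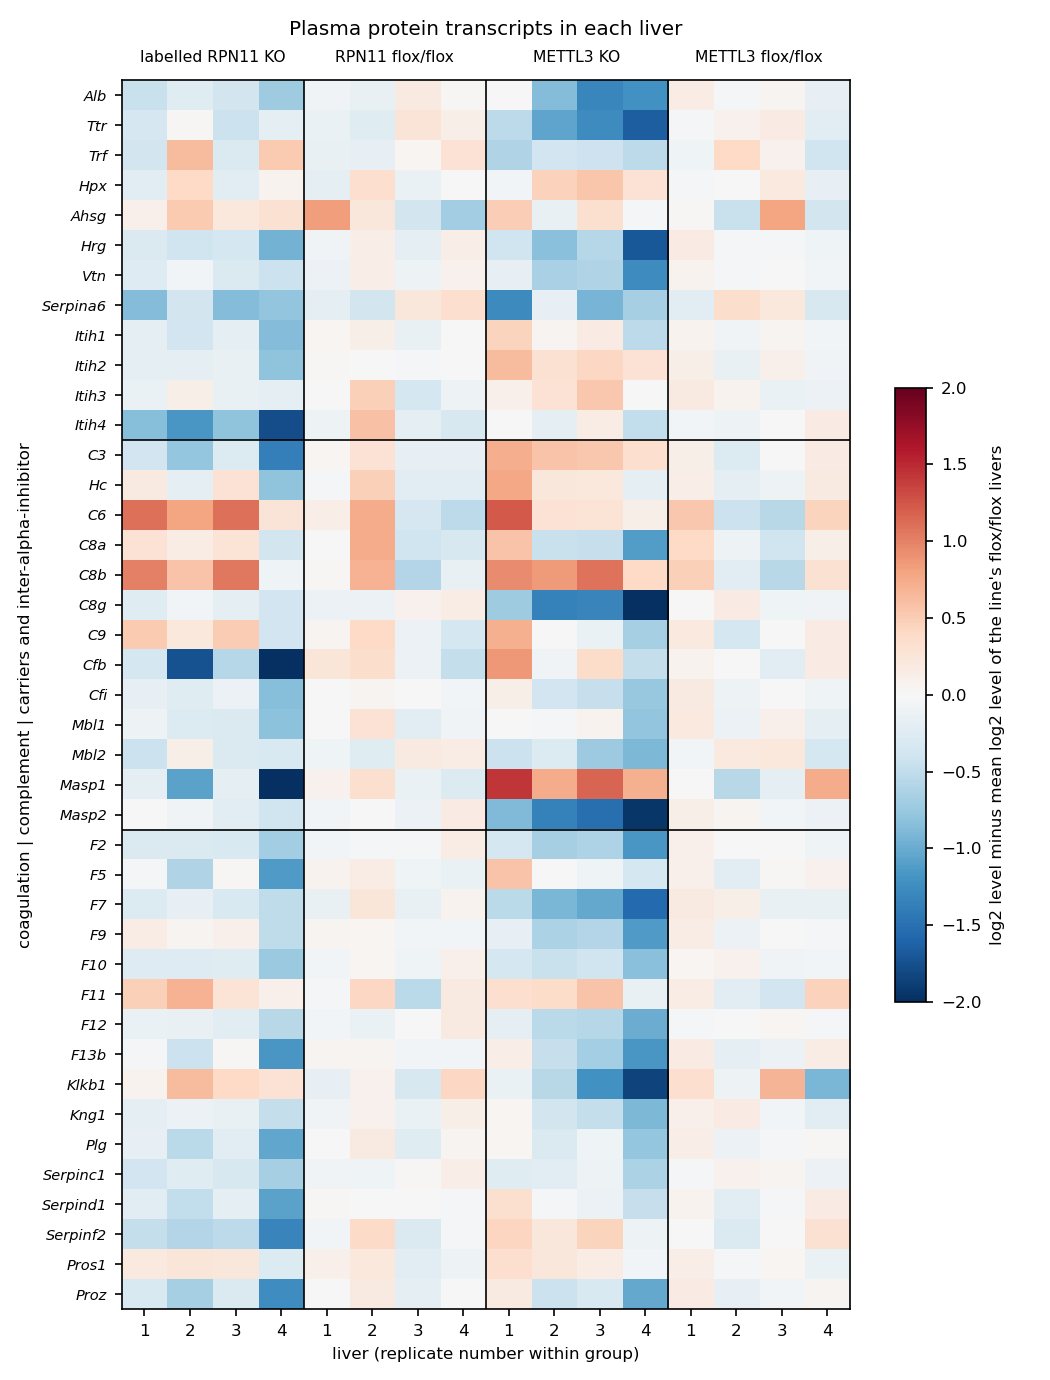
Log2 level of the 41 tested members in each of the 16 livers minus the mean log2 level of the line's flox/flox livers, blue for lower and red for higher, with the colour scale ending at -2 and 2. Rows run through carriers, complement and coagulation; the columns of labelled RPN11 knockout 4 and METTL3 knockout 4 are bluest, with medians of -0.67, and METTL3 knockout 1 has a median of 0.04.

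Other genes of these pathways, listed beside the members, moved as follows. Of all genes tested, 15.2% rose and 15.3% fell in the METTL3 line, and 1.99% rose and 2.82% fell in the RPN11 line. Of 29 tested further complement genes, 7 rose and 2 fell in METTL3 knockout livers, and none rose and 2 fell in livers labelled RPN11 knockout, C1rl with -0.52 ± 0.12 SE (adjusted p = 0.0303) and the inhibitor of the membrane pore Cd59a with -0.61 ± 0.14 SE (adjusted p = 0.0360). In METTL3 knockout livers Vsig4, a macrophage complement receptor, rose by 1.38 ± 0.16 SE (adjusted p = 0.000324), C1qc and C1qa, chains of the starter of the classical pathway, by 1.21 ± 0.14 SE (adjusted p = 0.000332) and 1.29 ± 0.24 SE (adjusted p = 0.00307), and Cd55, which dismantles C3-cleaving enzymes, by 0.89 ± 0.14 SE (adjusted p = 0.00121) on the log2 scale. Vsig4, C1qa and C1qc are also on the Kupffer cell list, all of whose tested genes rose. Of 27 further coagulation genes tested in the METTL3 line, 5 rose and 2 fell; Plat, tissue plasminogen activator, rose by 3.70 ± 0.50 SE (adjusted p = 0.000647), Anxa2, an annexin that binds it at cell surfaces, by 1.96 ± 0.41 SE (adjusted p = 0.00859), and Hgfac, the activator of hepatocyte growth factor, had -1.21 ± 0.16 SE (adjusted p = 0.000647). In the RPN11 line none of 25 rose and 2 fell, Hgfac with -0.65 ± 0.13 SE (adjusted p = 0.0182) and the kininogen Kng2 with -0.49 ± 0.11 SE (adjusted p = 0.0341). The fibrinogen chains Fga, Fgb and Fgg did not pass in either line.

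Of 27 tested further plasma carriers, 14 fell and 3 rose in METTL3 knockout livers. For this and the next lists, 15.3% of all genes fell and 15.2% rose in that line. In the RPN11 line 2.82% of all genes fell and 1.99% rose. Rbp4, the retinol-binding protein that Ttr carries, had a log2 fold change of -1.69 ± 0.29 SE (adjusted p = 0.00181), Serpina1c, a mouse alpha-1-antitrypsin, -1.47 ± 0.25 SE (adjusted p = 0.00181) and Agt, angiotensinogen, -0.96 ± 0.19 SE (adjusted p = 0.00394), whereas Itih5 rose by 4.32 ± 0.42 SE (adjusted p = 0.000372). In livers labelled RPN11 knockout none fell and 2 rose, Itih5 by 0.70 ± 0.17 SE (adjusted p = 0.0420) and Serpina1e by 2.43 ± 0.52 SE (adjusted p = 0.0432), the second also on the list of male-biased transcripts, of which 5 of 17 rose. Of 21 acute phase genes, 3 rose and 2 fell in METTL3 knockout livers, with Apcs (serum amyloid P) at 2.36 ± 0.36 SE (adjusted p = 0.00190) and Saa4 and Crp at -2.38 ± 0.37 SE (adjusted p = 0.00146) and -1.39 ± 0.31 SE (adjusted p = 0.00722), and 1 fell in livers labelled RPN11 knockout, Serpina3m at -1.0 ± 0.23 SE (adjusted p = 0.0351). Of 30 secretory pathway genes, 6 rose and 4 fell in METTL3 knockout livers. Herpud1, a degradation factor of the endoplasmic reticulum, and Sar1b, a small GTPase that builds transport vesicles, had -2.09 ± 0.30 SE (adjusted p = 0.000886) and -1.25 ± 0.20 SE (adjusted p = 0.00136), and Dnajb9 and Ern1, parts of the unfolded protein response, had 1.16 ± 0.20 SE (adjusted p = 0.00188) and 1.0 ± 0.18 SE (adjusted p = 0.00267). In livers labelled RPN11 knockout 2 of these 30 fell, the proprotein proteases Furin, with -0.62 ± 0.13 SE (adjusted p = 0.0250), and Pcsk6, with -1.05 ± 0.25 SE (adjusted p = 0.0432).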

How the data were processed

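Total RNA from 16 mouse livers was taken up in TRIzol, depleted of ribosomal RNA and made into libraries with a low-input kit, per the labels' protocols. Per the submitters' processing notes, the authors used cutadapt 1.9.3, HISAT2 2.0.4, HTSeq 0.9.1, edgeR and the build mm10; the sources used here name neither the annotation nor the strand setting. The deposited table holds raw counts of reads per gene; 16 further columns of normalized values were left aside.

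Each line was fitted alone with edgeR 4.0.16 in R 4.3.3 (filterByExpr, TMM, robust quasi-likelihood fit). The difference between lines was an interaction contrast over 16 livers, and the flox/flox groups were fitted together. P-values were Benjamini-Hochberg adjusted over all tested genes and called under 0.05. The procedure was tested on simulated data. Coordinates are from GENCODE M21 (GRCm38).

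Members and lists were chosen with earlier results of these data known. Every member may be named; values per liver are given for members called in a line or in the difference, and for the 2 of lowest p per subset and line. Others given per liver (Alb, Vtn and F11, and members shown in both lines) were chosen after their values were seen. Up to 4 called genes of lowest p are named per further list; C1rl, Cd59a, Furin, Pcsk6, Tat, Fbp1, Mpeg1, Fga, Fgb, Fgg, Hnf4a, Cebpb and Tardbp were also chosen afterwards. Alternatives were RLE size factors, plain library totals, no filter beyond a count above 0, DESeq2 1.42.0, a replicate block, 1 fit of all 16 livers, each liver left out and both libraries labelled knockout 4 left out.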

Additional observations from a re-analysis of the deposited data

Results flagged for a closer look

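Among 76 groups of 4 livers looked at for 19 members, 8 held a liver whose gap to the nearest other exceeded 0.829 of the group's range; chance gives about 5% of groups. Labelled RPN11 knockout 4 was the low value in 5 of them. It had 849.8 CPM of Itih2 (the other 3 livers 1298 to 1337 CPM), 880.2 CPM of F2 (others 1151 to 1166 CPM), 356 CPM of F9 (others 529 to 564 CPM), 291 CPM of F10 (others 406 to 413 CPM) and 126 CPM of Serpinf2 (others 211 to 227 CPM). Labelled RPN11 knockout 2 was high for Serpina6, with 471 CPM against 333 to 352 CPM in the others. METTL3 knockout 1 was high for C6, with 630.4 CPM against 292 to 327 CPM. RPN11 flox/flox liver 4 was high for F2, with 1580.2 CPM against 1368 to 1388 CPM.

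The effects of the lines, livers labelled knockout over flox/flox livers, differed for 7 members in the direct test of the difference, the effect in the RPN11 line minus that in the METTL3 line on the log2 scale. Values were -0.72 for Itih2, -1.03 for Itih4, -1.19 for C3, 1.08 for C8g, -1.66 for Masp1, 1.20 for Masp2 and -0.96 for Serpinf2.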

How the results depend on the processing

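Over the alternatives for 6 RPN11, 13 METTL3 and 7 difference values (members called there or of lowest p, so without Alb, Vtn and F11), 301 single-gene results kept their direction and side of the threshold, 129 lost the call, 9 gained one and none changed direction. Within a line, leaving out both libraries labelled knockout 4 repeats the fit without that line's knockout 4, and these totals count it both times. In the RPN11 line (2 members lower, 583 genes called), plain library totals gave 1 member and 884 genes, no filter 1 and 350, DESeq2 9 lower and 1 higher and 1333 genes, the replicate block 1 and 376, 1 fit of all 16 livers 1 and 343, and leaving out both libraries labelled knockout 4 4 and 941. In the METTL3 line (2 members higher, 11 lower), plain library totals gave 13 higher and 4 lower, no filter 7 lower, DESeq2 4 higher, 1 fit of all 16 livers 1 higher, and leaving out both libraries labelled knockout 4 7 lower. In the difference (2 higher, 5 lower), no filter gave 2 lower and DESeq2 4 higher. Between flox/flox groups (0 members, 38 genes), RLE size factors gave 66 genes, no filter 144, DESeq2 2 members lower and 412 genes, and the replicate block 7 genes. The causes of these changes were not tested.

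With 1 liver left out, RPN11 members numbered 0 to 1 higher and 0 to 4 lower with 59 to 941 genes. METTL3 members numbered 0 to 3 higher and 4 to 18 lower. Differences numbered 1 to 6 higher and 1 to 5 lower with 1095 to 2663 genes. Flox/flox members numbered 0 to 1 in each direction with 1 to 282 genes.

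Same-numbered livers of a line deviated together weakly (correlation -0.05 to -0.01 in the RPN11 line, 0.03 to 0.23 in the METTL3 line, -0.09 to 0.08 between flox/flox groups), and not every liver correlated best with its own number, so the numbers were not taken as pairs. Under the replicate block the METTL3 line had 2 members higher and 12 lower and the difference 3 higher and 4 lower.

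Proc had too few counts to be tested.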
